A study of Gallus gallus with 6 samples.

Results

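The genes described here are named for proteins of the mitochondrial ribosome. They were chosen by name: every gene whose only symbol in the array annotation is MRPL or MRPS followed by a digit. This gave 67 genes of 13051 annotated with 1 symbol, 43 named MRPL for the large subunit and 24 named MRPS for the small subunit. MRPS18A, MRPS30 and MRPS36 bear the MRPS name but are not small subunit proteins in mammals, as described below. The 67 genes were covered by 96 probe sets, and each gene was represented by its probe set with the highest mean over all 6 arrays. The naming rule itself uses no measured difference. A log2 value over 4 on at least 3 arrays was required for testing, and 64 of the 67 genes met it.

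The samples were primary monoblasts, immature cells of the monocyte and macrophage lineage, from Brown Leghorn chickens. They were transformed either by deltaP v-Myb, a mutated form of the oncoprotein, or by wild type v-Myb, which is the transforming transcription factor of avian myeloblastosis virus. The cells were put in culture 16 days after infection, and each group had 3 biological replicates with 1 Affymetrix array each. Every culture carried a v-Myb and was grown in the same medium, and no untransformed monoblasts are among the 6 samples. What deltaP changes in the protein is not stated in the labels, nor is whether a replicate is a clone, a pool or the cells of 1 bird. The series title names INK4A expression and the leucine zipper of v-Myb.

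The mitochondrial ribosome translates the few proteins that are encoded in mitochondrial DNA, which are core subunits of the respiratory chain and of ATP synthase. Its RNAs come from mitochondrial DNA, but all of its proteins are encoded in the nucleus and imported. Many of these proteins have a counterpart in the bacterial ribosome and keep its number, and others are found only in mitochondrial ribosomes. In mammals, the promoters of many of these nuclear genes are bound by NRF1 and by the ETS factor GABP.

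For every probe set the same-numbered deltaP and wild type arrays had the same mean in all 3 replicate numbers, to within 0.001 log2 units. The replicate number had thus been taken out of the values before deposit. The table holds no more than 3 differences per gene, 1 in each pair of same-numbered arrays. Array values below are therefore deposited values centred within pairs. In such values the groups do not overlap exactly when all 3 pair differences have the same sign. Errors are the SD of the 3 pair differences, and a positive difference means higher in deltaP. The exact two-sided sign test over 3 pairs cannot go below 0.25, so tests were read from limma fitted on all 7768 tested genes with the replicate number as a block.

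Between 41.8% and 42% of the non-control probe sets on each array exceeded a log2 value of 4. Of 10 annotated monocyte and macrophage markers, 9 passed the filter. The log2 of the summed signal of these 10 ran from 14.98 to 15.14 on deltaP arrays and from 15.10 to 15.27 on wild type arrays. The myeloid transcription factor gene SPI1 had mean log2 values of 13.68 in deltaP and 13.56 in wild type cells, and CSF1R, the receptor for macrophage colony-stimulating factor, had 12.51 in deltaP and 12.82 in wild type cells. The mannose receptor gene MRC1 was at background, with 2.64 in deltaP and 2.62 in wild type cells. The B cell gene CD79B (2.33 in deltaP, 2.38 in wild type) and the fibroblast collagen gene COL1A1 (2.26 in deltaP, 2.47 in wild type) were at background too. The T cell receptor component gene CD3D was not, with 10.02 in deltaP and 10.59 in wild type cells and pair differences of -1.17, 1.07 and -1.63. CD3E, the other lymphoid marker that passed the filter, had 6.31 in deltaP and 6.06 in wild type cells, with 0.41, 2.52 and -2.19. The log2 of the summed signal of the 6 annotated lymphoid markers ran from 9.61 to 10.99 on deltaP arrays and from 9.86 to 11.23 on wild type arrays. Of these 6 markers, 2 passed the filter. The same sum over 2 annotated heterophil markers ran from 11.33 to 11.89 on deltaP arrays and from 11.67 to 12.31 on wild type arrays, most of it from LYG2. Over 3 annotated erythroid markers it ran from 5.64 to 8.13 on deltaP arrays and from 5.99 to 8.39 on wild type arrays. Over 6 annotated fibroblast markers, of which 1 passed the filter, it ran from 5.69 to 5.77 on deltaP arrays and from 5.71 to 5.78 on wild type arrays. GP9, the annotated thrombocyte marker, was below the filter, with 2.41 in deltaP and 3.16 in wild type cells. The part of other cells in the differences below was not tested, and in bulk RNA fewer cells of a type and less RNA per cell cannot be told apart. The probe set for MYB read 2.17 in deltaP and 2.15 in wild type cells, at background, and cannot check the v-Myb alleles.

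The differences between deltaP and wild type monoblasts were small, and more mitochondrial ribosomal protein genes lay above 0 than below. Of the 64 tested genes, 46 (71.9%) had a higher mean in deltaP and 18 a lower one, where 51.3% of all 7768 genes had a higher mean in deltaP. The median log2 difference was 0.10, against 0.01 over all tested genes, and the quartiles of the 64 differences were -0.01 and 0.18. The extremes were MRPL19 (0.50), a large subunit protein, and MRPS14 (-0.48), a small subunit protein.

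None of the 64 genes passed an adjusted p of 0.05 in limma, where the share called among all tested genes was 0%. The smallest adjusted p among them was 0.44. At an unadjusted p under 0.05 limma gave 3 of the 64 genes (4.69%), against 9.93% of all genes, which is a share below the background. Of these 3, MRPL12 was higher in deltaP (1.56% of the 64, against 3.89% of all genes), and MRPS14 and MRPS26 were lower (3.12%, against 6.04% of all genes). With 1 array left out this count of 3 was 0 (either array of pair 1 or pair 2) or 1 (either array of pair 3). Over all 7768 genes the same count was then between 361 and 1024. Without the replicate block limma called 4 of the 64 at an adjusted p under 0.05, against 8.24% of all genes. That fit counts more residual degrees of freedom than the pair-centred values hold. The groups did not overlap in 28 of 64 genes (43.8%), against 33.3% of all genes. In 23 (35.9%) all deltaP arrays lay above all wild type arrays, against 17.5% of all genes. In 5 (7.81%) they lay below, against 15.9% of all genes.

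The fit gave an interval for the change of each gene, from a variance that limma draws partly from other genes. The 95% confidence interval of the log2 difference lay within a 2-fold change in either direction in 62 of 64 genes. The exceptions were MRPL19 (-0.06 to 1.05) and MRPL30 (-0.30 to 1.13). These intervals are for single genes and are not adjusted for the number of genes. No share of all genes stands beside the count of 62. Where the pairs of a gene spread widely, its interval can be narrower than its own 3 pairs would give. MRPL3, for example, had an SD of 0.50 and an interval from -0.21 to 0.78. The mean difference was larger than the SD of its own pair differences in 22 of the 64 genes, a count with no share of all genes beside it. That SD had a median of 0.17 log2 units in these genes and of 0.27 in all tested genes.

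**Figure D1:**
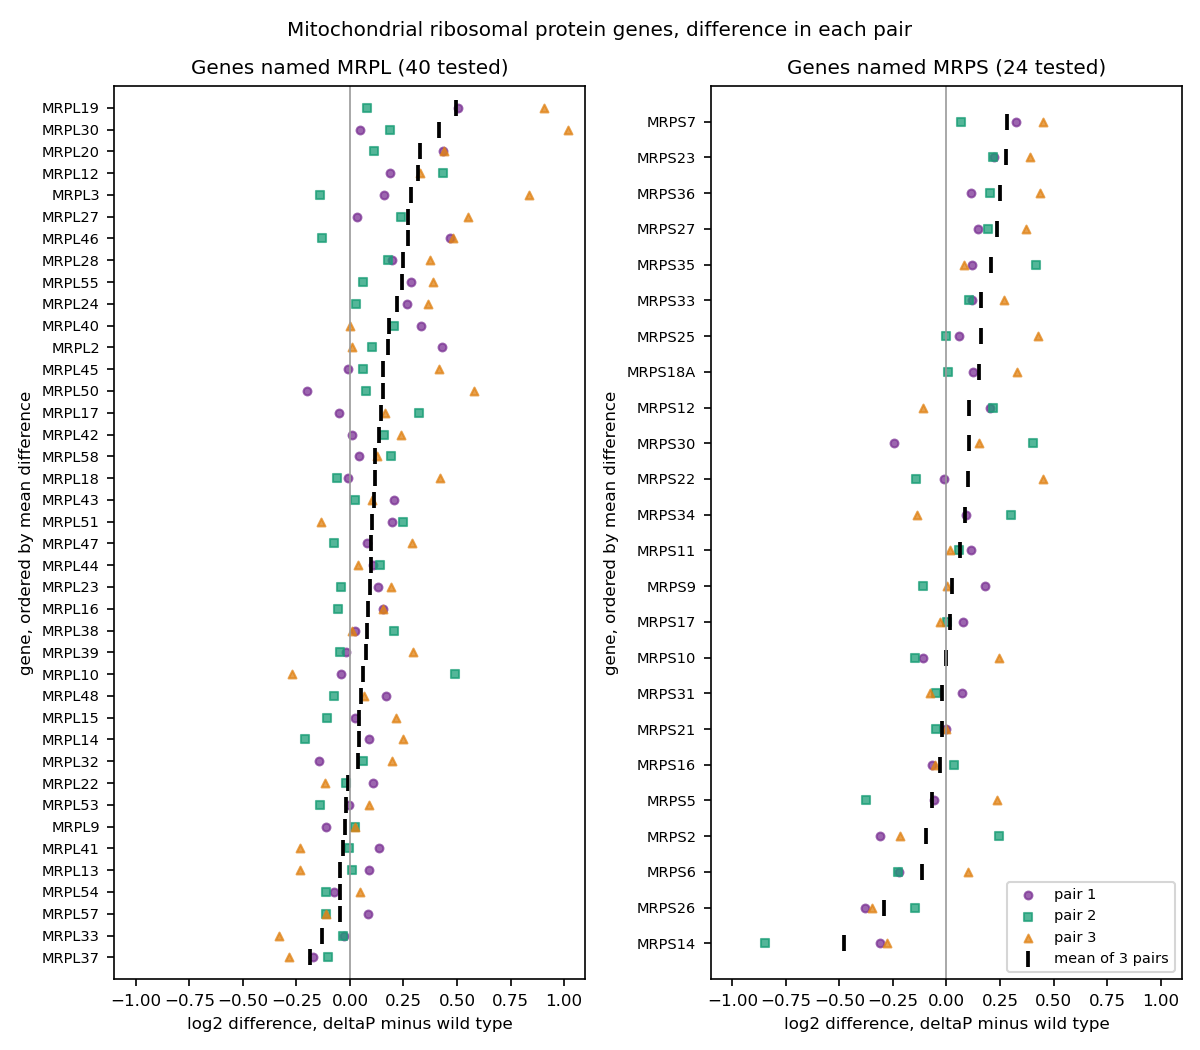
Log2 difference, deltaP minus wild type, of the 64 tested mitochondrial ribosomal protein genes (horizontal axis) with a row for each gene, MRPL genes at left and MRPS genes at right; coloured symbols are the 3 pairs and black ticks their mean. Of the 64 means, 46 lie to the right of 0, and all means lie between -0.48 and 0.50.

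The large subunit forms the peptide bond and holds the exit tunnel of the nascent protein. Its 40 tested MRPL genes had a median log2 difference of 0.10, and 31 of them were higher in deltaP. That median was 0.06 without either array of pair 3 and 0.15 without either of pair 2. The groups did not overlap in 15 genes that were higher (37.5%, against 17.5% of all genes) and 2 that were lower (5%, against 15.9% of all genes).

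MRPL12 (Entrez gene 769031) had the smallest p among the genes that were higher. It encodes the counterpart of the bacterial stalk protein L7/L12, which recruits translation factors to the ribosome, and in mammals the protein has also been found bound to mitochondrial RNA polymerase. Its values were 9.97, 10.10 and 10.04 on the deltaP arrays, against 9.79, 9.66 and 9.72 on the wild type arrays. All deltaP arrays lay above all wild type arrays. The log2 difference was 0.32 ± 0.13 (SD, n = 3 pairs), a 1.25-fold higher level. In limma the p was 0.0486 before adjustment and the adjusted p 0.497. The 95% confidence interval ran from 0.0027 to 0.63. MRPL10, whose bacterial counterpart anchors this stalk, had groups that overlapped, with pair differences of -0.04, 0.49 and -0.27.

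MRPL20 (Entrez gene 770979) is the counterpart of a bacterial protein that binds early in large subunit assembly. Its deltaP values were 9.995, 9.83 and 9.997, against wild type values of 9.56, 9.72 and 9.56. The groups were apart, by 0.33 ± 0.19 (SD, n = 3 pairs), with an adjusted p of 0.513 in limma. A dimmer probe set of the same gene went the other way, as described below.

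MRPL28 (Entrez gene 426121), the brightest probe set among the members (brightness depends on the probes as well as the transcript), had values of 11.99, 11.98 and 12.08 in deltaP and 11.79, 11.80 and 11.70 in wild type cells. The groups were apart, with pair differences of 0.20, 0.18 and 0.37, widest in pair 3, a mean of 0.25 ± 0.11 (SD, n = 3 pairs) and an adjusted p of 0.515 in limma. The protein has a bacterial counterpart of the same number.

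MRPL19 (Entrez gene 422066) had the largest mean difference of the 64 genes. Its bacterial counterpart lies where the subunits meet. The deltaP arrays read 7.10, 6.89 and 7.30, against 6.59, 6.80 and 6.39 on the wild type arrays. The pair differences of 0.50, 0.08 and 0.90 spread widely around their mean of 0.50 (1.41-fold), and the adjusted p in limma was 0.545.

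MRPL3 and MRPL30 had the widest spread between pairs. MRPL3, whose counterpart reaches towards the peptidyl transferase centre, read 10.72, 10.57 and 11.06 in deltaP, against 10.56, 10.71 and 10.22 in wild type cells. Its groups overlapped, since the difference was 0.84 in pair 3 and -0.14 in pair 2. MRPL30 was among the dimmest probe sets, with 4.19, 4.26 and 4.67 on deltaP arrays, against 4.14, 4.07 and 3.66 on wild type arrays. Pair 3 gave 1.02 of difference there and the other pairs 0.05 and 0.19, with adjusted p of 0.691 for MRPL3 and 0.684 for MRPL30 in limma.

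Of the 23 tested large subunit genes with a bacterial counterpart, 19 were higher in deltaP, with a median of 0.12. Beside those named above, the groups did not overlap in MRPL27 (0.27), MRPL55 (0.24), MRPL24 (0.22) and MRPL2 (0.18). In bacteria the counterparts of MRPL27 and MRPL2 lie at the peptidyl transferase centre and that of MRPL24 at the exit of the tunnel. MRPL33, a dim probe set, lay on the other side: its values were 5.35, 5.35 and 5.20 in deltaP and 5.37, 5.38 and 5.53 in wild type cells. Most of that difference (-0.13 ± 0.17, SD, n = 3 pairs) came from pair 3. Among the genes with overlapping groups, the tunnel proteins MRPL22 and MRPL23 had mean differences of -0.01 and 0.09. MRPL18 of the central protuberance had 0.12 and MRPL16, near the peptidyl transferase centre, 0.08. The others (MRPL9, MRPL13, MRPL14, MRPL15, MRPL17, MRPL32 and MRPL47) lay between -0.04 and 0.15.

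Large subunit proteins found only in mitochondrial ribosomes had a like median of 0.10, with 13 of 18 higher in deltaP. This count includes MRPS30, which bears a small subunit name but is part of the large subunit in mammalian structures. MRPL37 (Entrez gene 772313) was the member with non-overlapping groups on the lower side, with 10.57, 10.60 and 10.51 in deltaP and 10.74, 10.70 and 10.79 in wild type cells. Its difference of -0.19 ± 0.09 (SD, n = 3 pairs) had an adjusted p of 0.643 in limma. On another MRPL37 probe set, with a mean log2 value of 9.85, the groups overlapped, with pair differences of -0.25, 0.14 and -0.39. The groups did not overlap on the higher side in 6 genes (33.3%, against 17.5% of all genes), from MRPL38 (0.08) to MRPL40 (0.18). They included MRPL44 (0.10), a protein with a ribonuclease III fold, and MRPL58 (0.12), a peptidyl-tRNA hydrolase also known as ICT1 that frees stalled ribosomes. MRPL42 (0.13) and MRPL43 (0.11) were the other 2. MRPL46 had a mean of 0.27, but its pair differences were 0.47, -0.13 and 0.48. MRPL45, which in mammals lines the tunnel exit and contacts the inner membrane, had 0.41 in pair 3 and between -0.01 and 0.06 in the other pairs. MRPL39, MRPL41, MRPL48, MRPL50, MRPL51, MRPL53, MRPL54, MRPL57 and MRPS30 all had overlapping groups and means between -0.05 and 0.15.

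The small subunit binds the messenger RNA and reads its codons. The median over the 24 tested MRPS genes was 0.07, or 0.04 without either array of pair 3, and 15 of them were higher in deltaP. The groups did not overlap in 8 that were higher (33.3%, against 17.5% of all genes) and 3 that were lower (12.5%, close to the 15.9% of all genes). These 24 include MRPS18A and MRPS30, which are part of the large subunit in mammals, and MRPS36, described below. The 21 tested genes of the small subunit by structure had a median of 0.02, with 12 higher and 9 lower in deltaP. Among those 21, the groups did not overlap in 6 that were higher (28.6%) and 3 that were lower (14.3%). Both of the genes that were lower at an unadjusted p under 0.05 belonged here.

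MRPS14 (Entrez gene 424436) had the smallest p of all 64 genes. Its bacterial counterpart sits in the head of the small subunit near the decoding site. Its deltaP values were 8.89, 8.62 and 8.90, against wild type values of 9.19, 9.46 and 9.18. The groups were apart, with the widest gap in pair 2. The log2 difference was -0.48 ± 0.32 (SD, n = 3 pairs), 1.39-fold lower in deltaP. In limma the p was 0.033 before adjustment and the adjusted p 0.44.

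MRPS26 (Entrez gene 426561) encodes a small subunit protein with no bacterial counterpart. It read 11.37, 11.49 and 11.39 in deltaP, against 11.75, 11.63 and 11.74 in wild type cells. Here pairs 1 and 3 showed the wider gap. The difference of -0.29 ± 0.13 (SD, n = 3 pairs) had a p of 0.0404 before adjustment and an adjusted p of 0.477 in limma.

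MRPS7 (Entrez gene 422122) was the small subunit gene with the highest mean difference. Its bacterial counterpart binds early and organises the head of the subunit. The values were 10.75, 10.63 and 10.82 in deltaP, against 10.43, 10.56 and 10.37 in wild type cells. All deltaP arrays were above all wild type arrays, by 0.28 ± 0.19 (SD, n = 3 pairs), with an adjusted p of 0.555 in limma. On a dimmer probe set of MRPS7 the groups overlapped, as described below. MRPS6, a protein of the platform in bacteria, overlapped between the groups, with 11.37, 11.37 and 11.53 in deltaP and 11.59, 11.60 and 11.43 in wild type cells. A dimmer probe set of MRPS6, with a mean log2 value of 7.13, had pair differences of -0.91, 0.19 and 0.36.

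Small subunit genes with a bacterial counterpart were 5 higher and 7 lower of 12, with a median of -0.01. MRPS12, the counterpart of the decoding centre protein at which streptomycin resistance arises in bacteria, had pair differences of 0.20, 0.22 and -0.11. MRPS11 (0.06) and MRPS21 (-0.02) had groups that did not overlap, at differences close to 0. MRPS2, MRPS5, MRPS9, MRPS10, MRPS16 and MRPS17 had overlapping groups and means between -0.09 and 0.02.

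Of the 9 small subunit genes without a bacterial counterpart, 7 were higher in deltaP, with a median of 0.16. MRPS23 (0.28), MRPS27 (0.24), MRPS35 (0.21) and MRPS33 (0.16) had all deltaP arrays above all wild type arrays. MRPS27 belongs to the pentatricopeptide repeat proteins, which bind RNA. MRPS22 and MRPS25 had most of their difference in pair 3, 0.45 and 0.43. MRPS34 had 0.30 in pair 2 and -0.14 in pair 3, and MRPS31 had a mean of -0.02. The difference between this group and the small subunit genes with a bacterial counterpart was not tested.

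Of the remaining MRPS genes, MRPS18A, a relative of bacterial S18 that is part of the large subunit in mammals, had a difference of 0.15 with groups that did not overlap. MRPS36 bears a ribosomal name, but in mammals and yeast its product is known as an adaptor of the 2-oxoglutarate dehydrogenase complex. It was higher in all 3 pairs, by 0.11, 0.20 and 0.44. The 3 genes below the filter, MRPL1, MRPL21 and MRPL34, had mean log2 values of 3.33, 3.17 and 1.999 in deltaP, against 3.34, 3.18 and 1.98 in wild type cells, and were not tested.

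**Figure D2:**
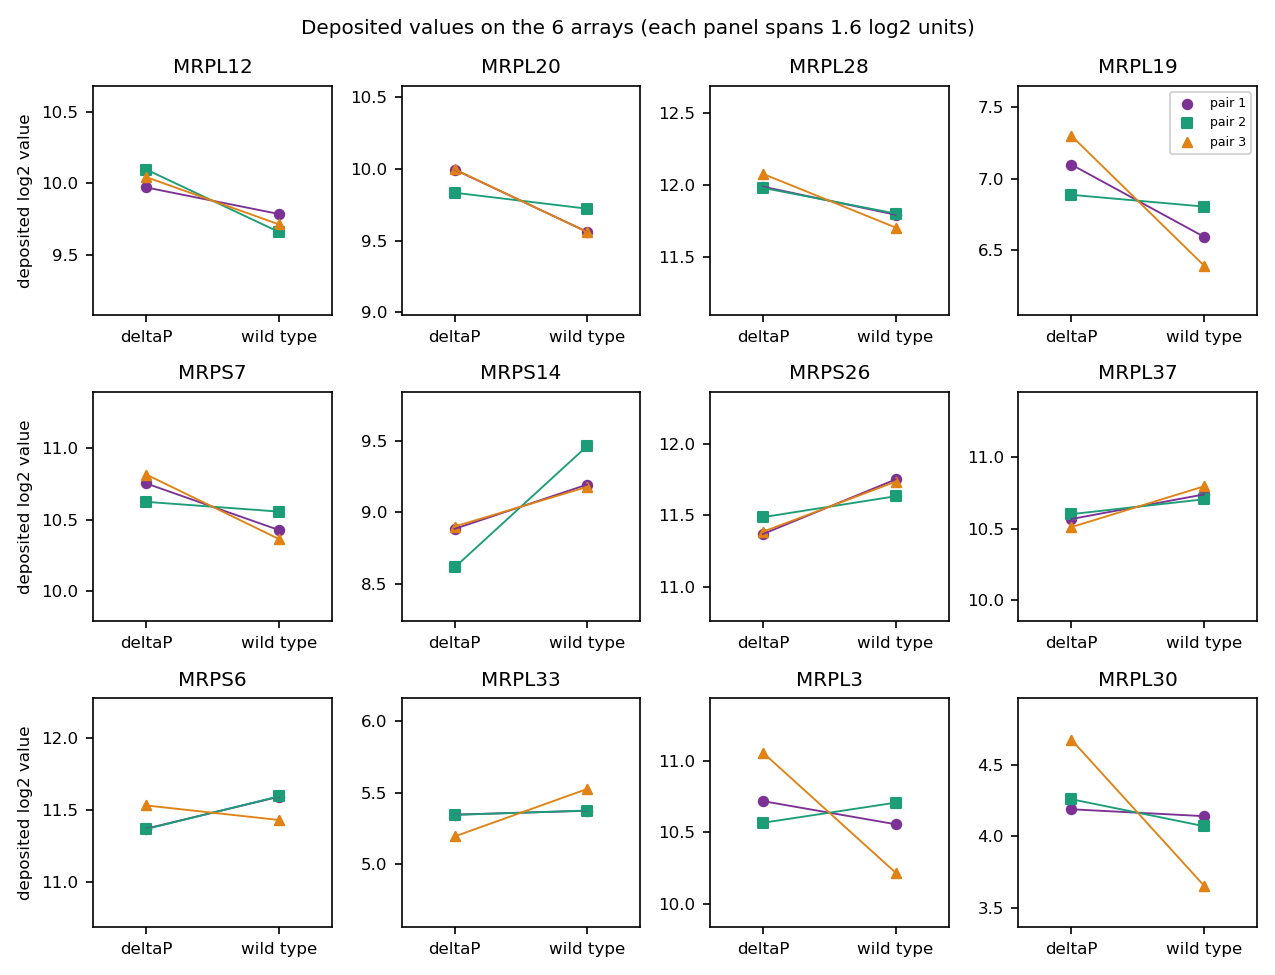
Deposited log2 values (vertical axis) of 12 members on deltaP arrays (left in each panel) and wild type arrays (right), with a line for each same-numbered pair; values are centred within pairs. In MRPL12 and MRPS26 the 3 lines run the same way, and in MRPL3 and MRPL30 the steepest line is that of pair 3.

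The lean towards higher values was uneven over the pairs. In pairs 1, 2 and 3 the 64 genes had median differences of 0.08, 0.03 and 0.15, against 0.03, 0.02 and -0.04 over all tested genes. In pair 1, 42 of 64 were higher (65.6%, against 54.2% of all genes). In pair 2 the number was 37 (57.8%, against 53.9% of all genes), and in pair 3 it was 47 (73.4%, against 45.8% of all genes). A difference above 0.5 occurred in 5 genes in pair 3, in 1 gene in pair 1 and in 0 genes in pair 2. The median of all 64 was 0.05 when either array of pair 3 was left out, and 43 of the 64 genes were then higher.

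Pair 3 also differed in the array controls. The poly-A control RNAs, which are added before labelling, were higher on its deltaP array by a median of 0.71 log2 units over 36 probe sets. In pairs 1 and 2 their medians were -0.10 and -0.07. The hybridization controls had medians of 0.04, -0.18 and 0.50 in pairs 1, 2 and 3. Signal at the 3' end relative to the 5' end, a sign of RNA integrity, differed in pairs 1, 2 and 3 by -0.02, -0.20 and -0.23 for actin. The same differences were 0.07, 0.01 and 0.16 for gapdh and -0.02, -0.03 and 0.09 for ef1a. Markers of other blood cells varied between pairs as well. The globin gene HBA1, a marker of red blood cells, had differences of 1.76, -0.04 and -2.94 in pairs 1, 2 and 3, and the globin gene HBAD had 2.91, 0.29 and -2.65. SLC4A1, an anion exchanger of red blood cells, had -1.81 in pair 3 and GP9, a platelet glycoprotein, -2.26, both below the filter and between -0.18 and 0.00 in the other pairs. LYG2 of the heterophil markers had 0.38, -1.40 and -0.13. The part of these in the member differences was not tested.

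Across the 64 genes the differences of pairs 1 and 3 had a Pearson correlation of 0.37, those of pairs 1 and 2 of 0.23 and those of pairs 2 and 3 of 0.10. Over all 7768 genes the same correlations were 0.22, 0.36 and 0.05. Genes are not independent replicates, and those of 1 pair share the same 2 arrays, so these values are a description only.

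**Figure D3:**
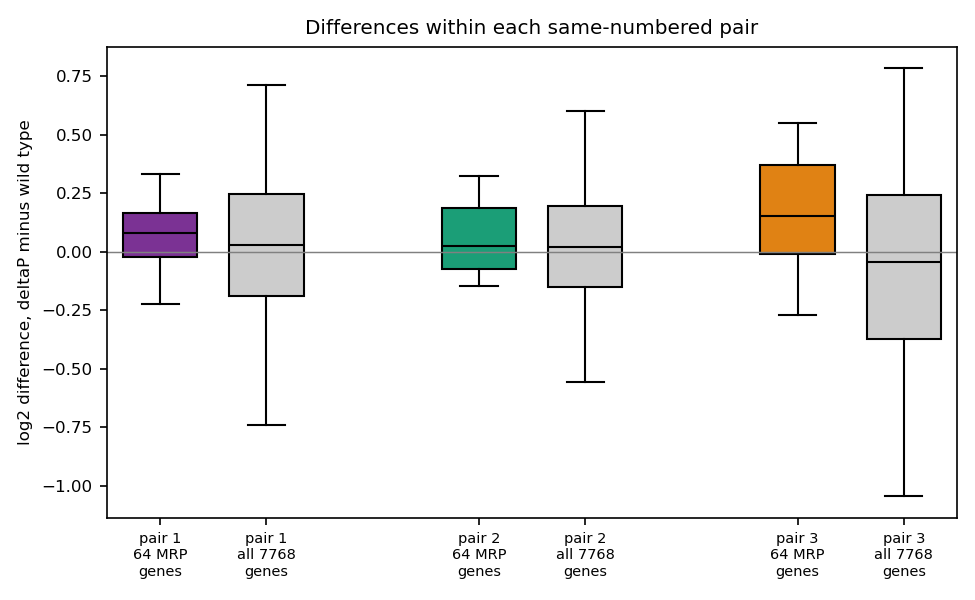
Log2 difference, deltaP minus wild type, within each same-numbered pair (vertical axis), for the 64 tested mitochondrial ribosomal protein genes (coloured) and all 7768 tested genes (grey); boxes span the quartiles, lines mark medians and whiskers the 5th to 95th percentile. The coloured median is 0.15 in pair 3, where that of all genes is -0.04.

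According to the GRCg7b gene table, 5 of the tested members lie on chromosome Z: MRPL17, MRPL50, MRPS27, MRPS30 and MRPS36. Their median differences in pairs 1, 2 and 3 were -0.05, 0.20 and 0.37. Those of all 380 tested Z genes were -0.10, 0.12 and 0.16. The 59 members on other chromosomes had medians of 0.08, 0.01 and 0.11. Those of all 7314 tested genes on other chromosomes were 0.04, 0.02 and -0.05. Pair 3 was thus the highest in both sets of members.

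Several members had more than 1 probe set above the filter, and these did not always run together. Of 12 such genes, 6 had probe sets whose mean differences had opposite signs. In MRPL20 the opposition held in every pair: the brightest probe set gave 0.43, 0.11 and 0.44, and a dimmer one, with a mean log2 value of 5.45, gave -0.45, -0.18 and -0.52. In MRPS16 the 4 probe sets had means of -0.03, -0.24, 0.19 and -0.15 from the brightest to the dimmest. MRPL32 had 0.04 on its brighter and -0.23 on its dimmer probe set, and MRPS33 had 0.16 and -0.05. MRPL3 (0.29 and -0.05) and MRPL38 (0.08 and -0.10) completed the 6. The files used here do not say which transcript each probe set reports, so the value of such a gene is that of its brightest probe set. The 3 probe sets of MRPL17 were close to each other, with means of 0.15, 0.11 and 0.15. In MRPS7 the second probe set had a mean of 0.21, near the 0.28 of the brightest. The groups overlapped on that second probe set, with pair differences of 0.19, -0.07 and 0.50.

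**Figure D4:**
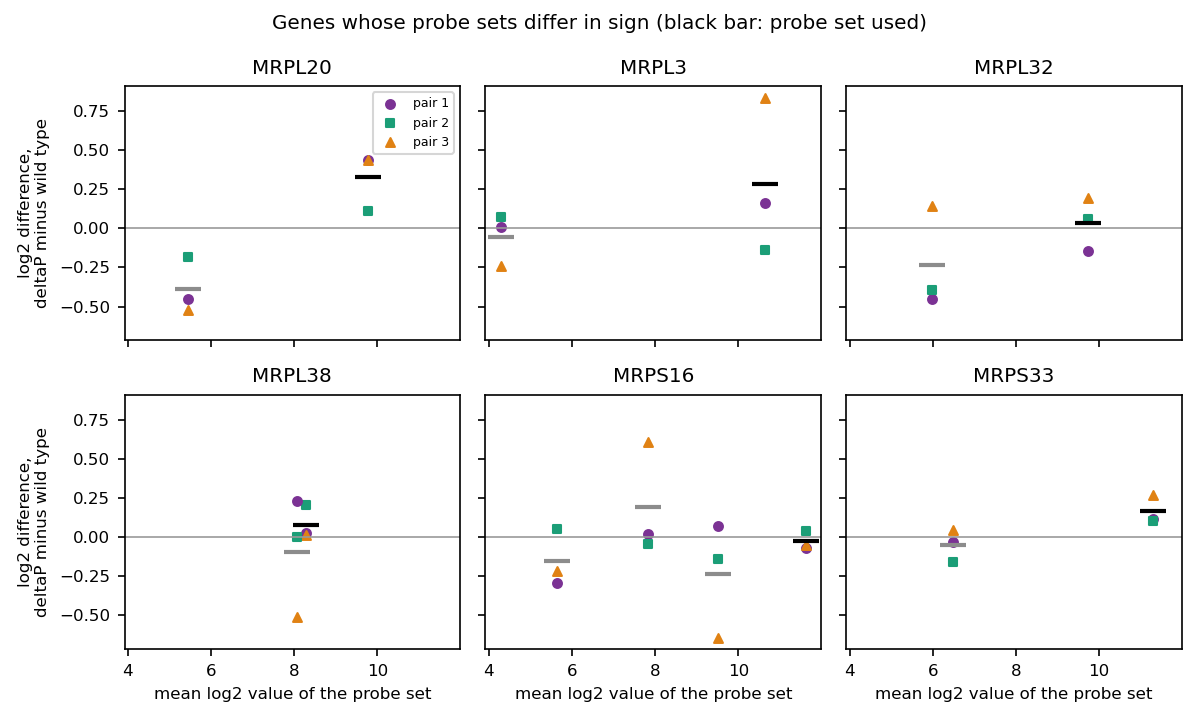
Log2 difference, deltaP minus wild type (vertical axis), against the mean log2 value of each probe set above the filter (horizontal axis) for the 6 members whose probe sets differ in sign; symbols are pairs, bars their mean, black for the probe set used. In MRPL20 all 3 pairs are above 0 on the brightest probe set and below 0 on the dimmer one.

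The rest of the mitochondrial translation machinery was divided between higher and lower. The mitochondrial translation and assembly list holds initiation, elongation and release factors, tRNA synthetases, RNA-modifying enzymes and assembly GTPases. Over its 52 tested members the median was -0.01, with 25 higher and 27 lower in deltaP, and 0 members were at an unadjusted p under 0.05 in limma, where 9.93% of all genes had one. Its medians in pairs 1, 2 and 3 were 0.07, 0.04 and -0.11. The 4 members with the smallest p were MRM2, HEMK1, PUS1 and GFM1. MRM2, a methyltransferase of the large ribosomal RNA of mitochondria, had pair differences of -0.21, -0.32 and -0.35 (adjusted p = 0.56 in limma). HEMK1, which methylates the mitochondrial release factors, had -0.62, -0.12 and -0.29. PUS1, a pseudouridine synthase of tRNAs, had 0.49, 0.64 and -0.03, and GFM1, the mitochondrial elongation factor G, had 0.38, 0.08 and 0.31.

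The list of mitochondrial ribosome proteins that do not bear an MRP symbol held 4 tested genes, and their groups overlapped in every case. All 4 were higher in deltaP in pair 1, 0 in pair 2 and 3 in pair 3, with pair medians of 0.08, -0.19 and 0.29. Their mean differences were 0.12 for AURKAIP1, 0.09 for CHCHD1, 0.02 for PTCD3 and -0.08 for DAP3, the GTP-binding protein of the small subunit. Adjusted p in limma was 0.853 or more.

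The 15 tested regulators of mitochondrial biogenesis had a median of 0.01, with 8 above 0 and 7 below. The groups did not overlap in 5 that were higher (33.3%, against 17.5% of all genes). The same held for 5 that were lower (33.3%, against 15.9% of all genes). MTERF2, of the mitochondrial transcription termination factor family, had mean log2 values of 5.93 in deltaP and 7.04 in wild type cells, with pair differences of -0.98, -0.86 and -1.49 (adjusted p = 0.233 in limma). NRF1 had mean log2 values of 5.33 in deltaP and 4.60 in wild type cells. Its pair differences were 0.71, 1.06 and 0.42, all above 0 on a dim probe set, and its adjusted p in limma was 0.397. POLG, the catalytic subunit of the mitochondrial DNA polymerase, had -0.73, -0.10 and -1.59. Its probe set was dim too, with mean log2 values of 4.92 in deltaP and 5.73 in wild type cells. PPRC1, a coactivator of NRF1, had 0.52, 0.09 and 0.56. Of the GABP genes, GABPA had pair differences of 0.08, 0.11 and 0.08, and GABPB1 had -0.12, -0.25 and -0.09. At an unadjusted p under 0.05 limma gave 1 regulator that was higher (6.67%, against 3.89% of all genes). It gave 1 that was lower (6.67%, against 6.04% of all genes). No member of this list passed an adjusted p of 0.05.

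Set beside the nuclear genes for oxidative phosphorylation, which encode the partners of the proteins that this ribosome makes, the mitochondrial ribosomal protein genes had a like median. Of 59 tested oxidative phosphorylation subunit genes, 47 were higher in deltaP, with a median of 0.11 and pair medians of 0.11, 0.03 and 0.17. The cytosolic ribosomal protein genes lay on the other side of 0: over 65 tested genes the median was -0.12, 4 genes were higher and 61 lower in deltaP, with pair medians of -0.08, 0.04 and -0.30. None of the genes of either list passed an adjusted p of 0.05 in limma (smallest adjusted p 0.404 and 0.426). The opposite signs of the mitochondrial and the cytosolic lists held in pairs 1 and 3, and both medians were above 0 in pair 2. The lists also differed in signal, with median log2 values of 9.78 for the mitochondrial and 14.85 for the cytosolic genes, which depend on the probes as well as the transcripts. In pair 3 the median difference of all tested genes was -0.11, -0.06 and 0.01 in 3 classes of rising signal with about as many genes each. The part of signal level and the difference between the lists were not tested.

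**Figure D5:**
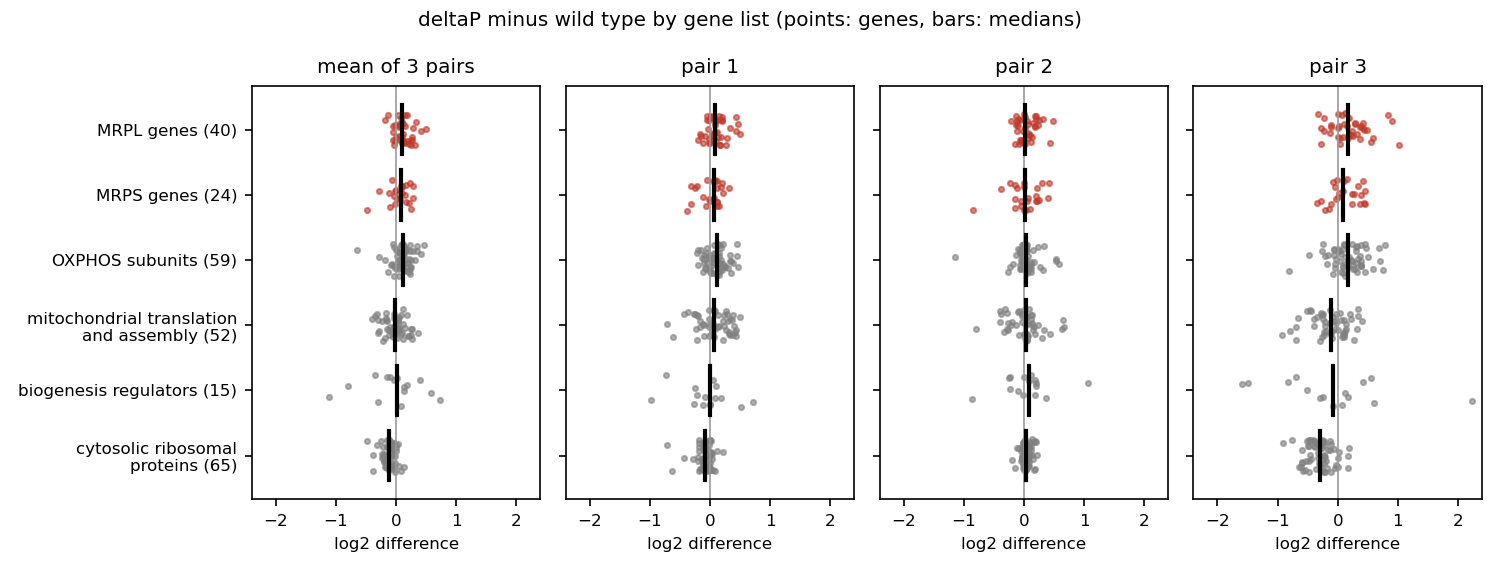
Log2 difference, deltaP minus wild type (horizontal axis), by gene list, as the mean of 3 pairs and within each pair; points are tested genes, black bars list medians, and numbers of genes stand in brackets. The medians of the MRPL and MRPS genes are above 0 in every panel, and that of the cytosolic ribosomal proteins is -0.30 in pair 3.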

How the data were processed

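The authors' deposited table gives log2 expression values of 38535 probe sets (96 of them controls) on 3 deltaP and 3 wild type arrays. The submitters' processing notes name Partek 6.4 and GCRMA. That method models background from probe sequence, normalizes by quantiles and pulls dim probe sets towards a floor, which can shrink or distort their differences. The values were also centred within same-numbered pairs (largest gap between pair sums 0.00013, correlation of same-numbered deviations -1), a step not given in the sources used here. What the pairs share is not stated.

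Gene symbols came from the platform annotation of 2016. All 67 members matched the GRCg7b gene table and 0 symbols changed. The RNA was labelled with biotin, per the labels' protocols. The two-sided test was limma 3.58.1 in R 4.3.3 (lmFit, then eBayes allowing an intensity trend) over 7768 genes, with Benjamini-Hochberg adjustment at 0.05 and the replicate number as a block (2 residual degrees of freedom against 4 without it). The fit was run on simulated data, where only the size of the added differences had to be recovered. That run does not check the p-values. The p-values set the mean within-pair difference against a variance that eBayes draws partly from other genes of like intensity. The number of arrays limits the precision, and an array value carries no count or depth.

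The members and lists were chosen with earlier results of these data known. Every member could be named. Values on all arrays were given for the 5 members of smallest p on each side and the 3 with the widest range of pair differences, and the 4 genes with the smallest p were named in each other list (MTERF2, NRF1, POLG and PPRC1 among regulators). Members whose probe sets had opposite signs were named too, as were GABPA and GABPB1, since GABP is named in the background. Large and small subunit membership and bacterial counterparts were assigned from general knowledge of mammalian mitochondrial ribosomes. The alternatives tried were no block, no filter, a filter at 6, no intensity trend, arrays centred on their medians, the mean of a gene's probe sets, and leaving out each array.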

Additional observations from a re-analysis of the deposited data

How the results depend on the processing

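Without the replicate block, limma called 640 of 7768 genes and 4 of the 64 mitochondrial ribosomal protein genes. These were MRPL12, MRPL28, MRPS23 and MRPS26, with a smallest adjusted p of 0.0352. In that fit 16 of the 64 members had an unadjusted p under 0.05, against 2123 of the 7768 genes. Its 4 residual degrees of freedom are more than the 2 that pair-centred values hold. Under each of the other alternatives, 0 genes and 0 members were called in limma. In the limma fit reported, 3 of the 64 members had an unadjusted p under 0.05, against 771 of 7768 genes. With no filter the number was 5 of 67, against 850 of 13051 genes. It was 1 without the intensity trend (743 of 7768 genes) and 2 of 60 with the filter at 6 (699 of 6654 genes). With the mean of a gene's probe sets it was 4 of 64 (715 of 7238 genes). With arrays centred on their medians it was 3 of 64 (770 of 7768 genes). When 1 array was left out, it was 0 without either array of pair 1 or of pair 2, and 1 without either of pair 3. The count over the 7768 genes was then between 361 and 1024. Leaving out an array also removes its partner from the contrast. The median log2 difference of all members lay between 0.05 and 0.11 over all alternatives, and 43 to 47 members were higher in deltaP. The low end came from leaving out either array of pair 3. MRPL20 turned to -0.027 when all probe sets of a gene were averaged, since its dimmer probe sets then entered. The other 11 members with values on all arrays kept their direction in every alternative that tested them. Signal over background limits the dimmest tested members, MRPL30 and MRPL47, whose mean log2 values were 4.16 and 4.23.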
